A study of Mus musculus with 6 samples.

Results

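Kupffer cells, the resident macrophages of the liver, were followed through 10 marker genes in RNA of isolated mouse hepatocytes. The genes were Clec4f, Cd5l, Vsig4, Marco, Csf1r, Cd68, C1qa, C1qb, C1qc and Cd163, taken by name, and all 10 were among the 20416 genes of the array. There were 3 miR-143DOX mice, which carry a miR-143 transgene that doxycycline switches on, and 3 control mice, their wildtype littermates, all adult and of C57BL/6 background. Both groups received doxycycline (4 mg/ml, in drinking water that held 10% sucrose) over 8 days, so control animals differed in the transgene and not in the drug. The sources used here do not name the promoter or cell type that drives the transgene. RNA of each mouse was read on 1 Affymetrix array. The study compared the 2 groups to see which hepatocyte transcripts differ when miR-143, a microRNA that lowers transcripts it pairs with, is induced.

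Kupffer cells line the liver sinusoids and take up particles, aged red cells and complement-coated microbes from portal blood. They lie beside endothelial and stellate cells, and a collagenase digest of the liver frees all of these with the hepatocytes. A hepatocyte preparation can therefore hold transcripts of macrophages. In RNA of a mixed preparation, fewer cells of a type and less RNA per cell cannot be told apart.

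The array correlations across probe sets were between 0.936 and 0.954, and the 16 hepatocyte genes looked up, albumin and apolipoprotein genes among them, were all above the filter on dim genes. That filter left out the 25% of genes with the lowest mean over the 6 arrays, those under 5.06 on the log2 intensity scale, and 15312 genes were tested. All 10 Kupffer cell markers passed it. No detection call was used, so a dim value may be background. Marco lay nearest to the limit, with group means of 5.80 and 5.75 in miR-143DOX and control.

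None of the 10 Kupffer cell markers differed between the groups by more than the spread between mice. Their differences (miR-143DOX minus control, log2) ran from -0.14 for Cd163 to 0.18 for Cd5l, with 7 above 0 and 3 below 0 and a median of 0.06. The median over all 15312 genes was 0.01, with 52.4% of them above 0. In limma's moderated test with Benjamini-Hochberg adjustment, 0 of 10 markers passed 5% false discovery rate (FDR), as did 0% of all genes. At an unadjusted p under 0.05 the count was also 0 of 10, where 3.06% of all genes lay. The groups overlapped for each of the 10 markers, while 7.13% of all genes had groups that did not overlap, 3.4% higher and 3.73% lower in miR-143DOX.

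The intervals describe the difference in intensity averaged over the probe sets of a gene. Dim probe sets were part of that average, 8 of 18 for Marco, whose single probe sets ran from -1.23 to 1.80. The size of change in transcript or in the number of Kupffer cells that the intervals allow was not tested. The 95% interval of the difference lay within a 2-fold change of averaged intensity in either direction for 10 of 10 markers. It lay within 1.5-fold for 9 of 10. The lowest bound was 0.692-fold, for Cd163, and the highest 1.51-fold, for Cd5l. The difference was smaller than the pooled standard deviation (SD) within groups for all 10 markers, and the share of all genes for which this holds was not counted.

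**Figure D1:**
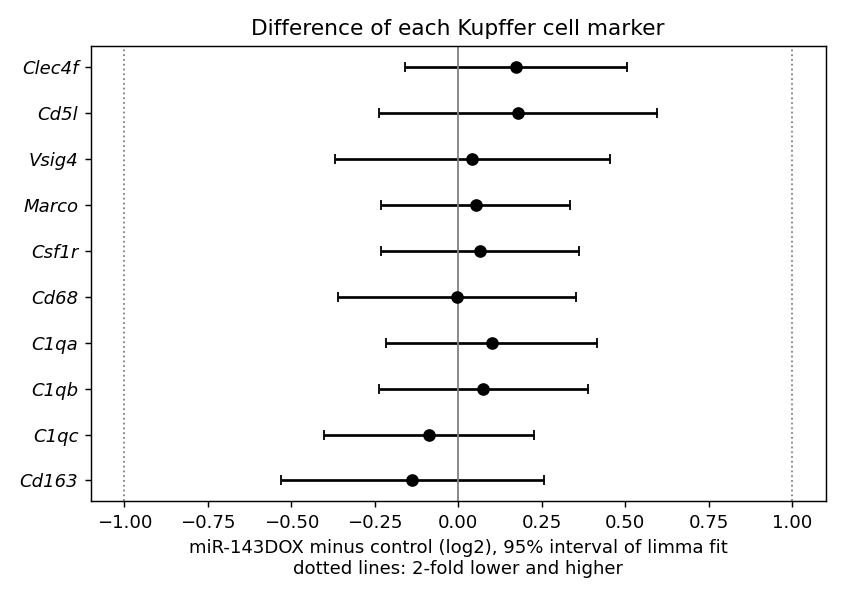
Difference of each of the 10 Kupffer cell markers (points; miR-143DOX minus control, log2) with the 95% interval of the limma fit, 3 mice per group. Each interval includes 0, and none reaches the dotted lines at a 2-fold change of averaged intensity.

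Clec4f encodes a galactose-binding lectin receptor that, in mouse liver, is found on Kupffer cells. Its log2 intensity was 8.11, 7.76 and 7.99 in miR-143DOX mice 1 to 3, against 7.96, 7.57 and 7.81 in control mice 1 to 3. The lowest value was that of control mouse 2, and the groups overlapped. The difference was 0.17 (standard error 0.15, limma unadjusted p = 0.282, adjusted p = 0.9997, as for the other markers). It lay above 0 in each of 16 other settings of the processing, between 0.04 and 0.27, all drawn from the same 6 arrays. The lowest was with dim probe sets left out (limma unadjusted p = 0.801). The 2 dim probe sets of Clec4f gave 0.48 and 0.92, and 4 of its 10 probe sets lay below 0.

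Vsig4 encodes the complement receptor CRIg, which binds C3 fragments on microbes. It measured 8.72, 8.01 and 8.40 in miR-143DOX mice, against 8.09, 8.36 and 8.55 in control mice. Both the highest and the lowest of the 6 values belonged to miR-143DOX mice, and the difference of the means was 0.04 (standard error 0.19). Without miR-143DOX mouse 1 it was -0.13, and without control mouse 1 it was -0.08.

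Marco, a scavenger receptor for bacteria and particles, measured 5.77, 5.70 and 5.93 in miR-143DOX mice and 5.74, 5.75 and 5.76 in control mice. Of its 18 probe sets, 8 were in the dimmest 25% of probe sets. The difference was 0.05 (standard error 0.13).

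Cd163 encodes the receptor that clears haptoglobin-bound haemoglobin. It measured 7.01, 6.64 and 6.57 in miR-143DOX mice, against 6.52, 7.02 and 7.10 in control mice. The highest and the lowest values were both those of control mice. The difference of -0.14 (standard error 0.18, interval -0.53 to 0.26) was the lowest of the 10. It was -0.32 without control mouse 1 (limma unadjusted p = 0.0868), -0.27 without miR-143DOX mouse 1 and -0.03 without control mouse 3.

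Cd68, a glycoprotein of endosomes and lysosomes, measured 6.89, 6.69 and 6.66 in miR-143DOX mice, against 6.52, 6.65 and 7.08 in control mice. The miR-143DOX values lay inside the control range, and the means differed by -0.0044.

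Csf1r is the receptor for CSF1 and IL-34, on which the survival of Kupffer cells depends. It measured 7.86, 7.59 and 7.72 in miR-143DOX mice and 7.78, 7.61 and 7.59 in control mice. The control values lay inside the range of the miR-143DOX values, and the difference was 0.06 (standard error 0.14). No other gene of that axis passed the test. Csf1 differed by 0.19 (standard error 0.17), Il34 by 0.12 (0.15) and Sfpi1 (Spi1 in RefSeq), the gene of the macrophage factor PU.1, by -0.19 (0.16). Of the 7 genes of the axis, Csf1r included, 0 lay at an unadjusted p under 0.05.

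Cd5l encodes a secreted protein known as apoptosis inhibitor of macrophages. It had the widest range of the 10 markers, with 8.72, 7.87 and 8.36 in miR-143DOX mice against 8.20, 8.07 and 8.14 in control mice. The miR-143DOX values lay on both sides of the control values, with an SD of 0.43 in miR-143DOX and 0.07 in control. The difference was 0.18 (standard error 0.19, limma unadjusted p = 0.366). Cd5l depended on single mice. Without miR-143DOX mouse 2 the difference was 0.40 (limma unadjusted p = 0.0335), the one marker at p under 0.05 in any setting tried, and without miR-143DOX mouse 1 it was -0.02.

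C1qa, C1qb and C1qc encode the 3 chains of C1q, the part of complement component C1 that recognises antibody and dying cells, and macrophages are its main source. C1qa measured 7.78, 7.71 and 7.37 in miR-143DOX mice, against 7.50, 7.54 and 7.52 in control mice. C1qb measured 7.23, 6.85 and 6.91 in miR-143DOX mice, against 6.83, 6.96 and 6.97 in control mice. C1qc measured 6.77, 6.62 and 6.78 in miR-143DOX mice, against 7.04, 6.66 and 6.72 in control mice. The gene values of the chains did not share an order of mice. The highest was that of miR-143DOX mouse 1 for C1qa and C1qb and that of control mouse 1 for C1qc. By probe set, miR-143DOX mouse 1 was highest on 1 of 3 for C1qa, 3 of 4 for C1qb and 2 of 3 for C1qc. The remaining probe set of C1qc, its dimmest, read 6.00 in control mouse 1 and 4.85 in miR-143DOX mouse 1. The differences of the 3 genes were 0.10, 0.07 and -0.09, each with a standard error of 0.14. Single probe sets gave -0.10, -0.11 and 0.51 for C1qa. They gave -0.13, -0.07, 0.02 and 0.49 for C1qb, and 0.04, -0.03 and -0.26 for C1qc. The last value of each gene was that of its dimmest probe set. C1qa was 0.23 without miR-143DOX mouse 3 and 0.02 without miR-143DOX mouse 1.

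**Figure D2:**
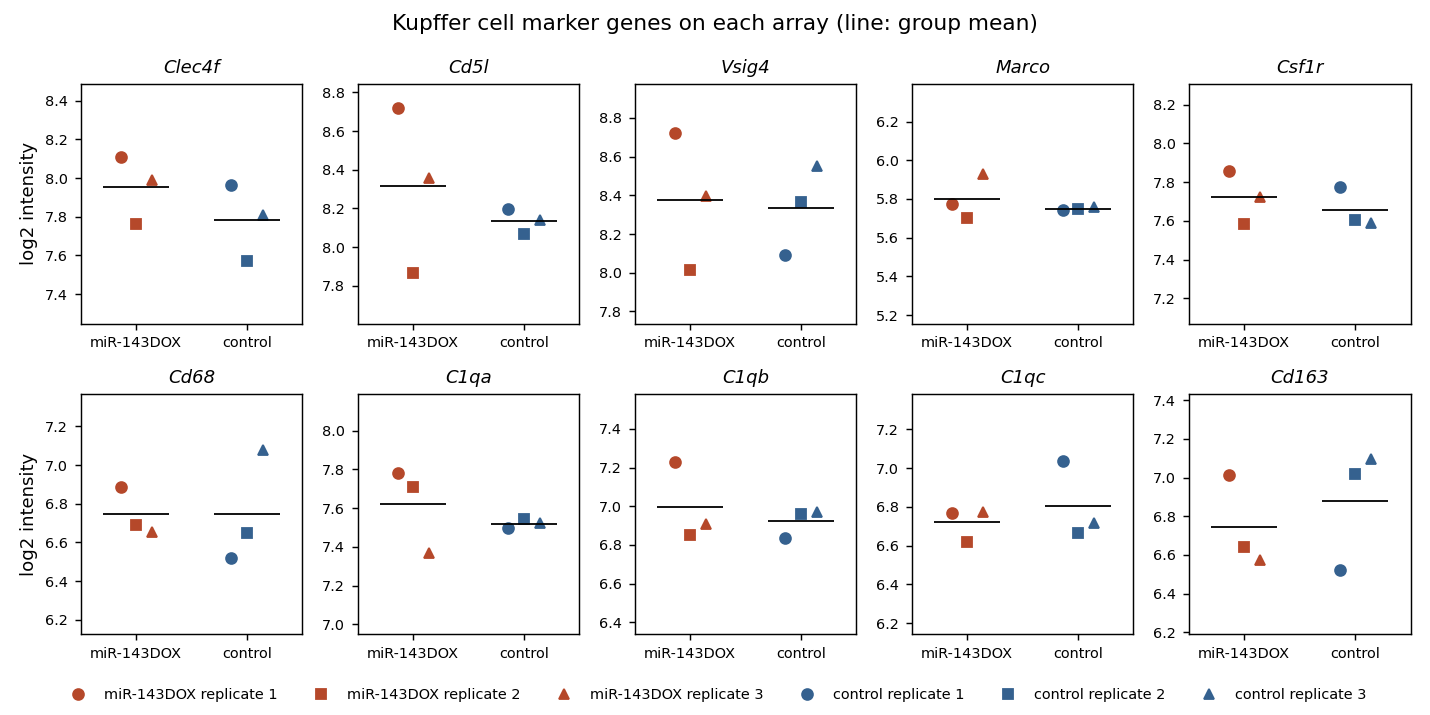
Log2 intensity of the 10 Kupffer cell markers on each array, with 3 miR-143DOX mice (left, red) and 3 control mice (right, blue) per panel. The marker shape gives the replicate number, lines are group means, and each panel spans the same number of log2 units. The groups overlap in each panel, and miR-143DOX mice 1 and 2 stand apart most for Cd5l and Vsig4.

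C1q acts with the proteases C1r and C1s, which the liver supplies in large part from hepatocytes. C1r (C1ra in RefSeq) measured 8.12, 8.23 and 8.21 in miR-143DOX mice, against 8.40, 8.56 and 8.68 in control mice. The difference was -0.36 (standard error 0.13, limma unadjusted p = 0.0186). C1s measured 9.66, 9.95 and 10.05 in miR-143DOX mice, against 10.18, 10.06 and 10.43 in control mice, a difference of -0.34 (0.15, limma unadjusted p = 0.0483). The groups did not overlap for either gene, and neither passed 5% FDR over all genes (adjusted p = 0.9997 for both). Of the 11 tested genes on their list, 3 lay lower without overlap and 0 higher, beside 3.73% and 3.4% of all genes. Among 11 tested partners and regulators of C1, 2 lay lower and 0 higher at an unadjusted p under 0.05, where 1.68% and 1.38% of all genes lay, and the median was -0.12. The difference between these proteases and the C1q chains was not tested.

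For most Kupffer cell markers, mice of the same group lay further apart than the group means. miR-143DOX mouse 1 was above miR-143DOX mouse 2 for 10 of 10 markers, while it was so for 51.0% of all genes tested. The gap was widest for Cd5l, at 0.85 (log2), and narrowest for Marco, at 0.07. It exceeded the difference between the group means for 9 of 10 markers, the exception being C1qa. The share of all genes with such a gap was not counted, so this is not shown to be particular to the markers. miR-143DOX mouse 1 had the highest of the 6 values for 6 of the 10 markers and for 20.3% of all genes. miR-143DOX mouse 2 had the lowest for 5 of the 10 and for 15.0% of all genes. The mean deviation of the 10 markers from their own means over the 6 arrays was 0.21, -0.13 and -0.01 in miR-143DOX mice 1 to 3, and -0.06, -0.06 and 0.05 in control mice 1 to 3. The control values thus lay between the miR-143DOX extremes. Over the 6 mice the range of Cd5l was 1.80-fold and that of Vsig4 1.63-fold.

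The within-group spread of the markers was near that of other genes. The median SD within groups was 0.173 for the 10 markers and 0.177 for all genes tested, and 5 of 10 markers were above the latter. Cd5l, at 0.306, and Vsig4, at 0.300, had the largest SD of the 10, and 10.4% and 11.2% of all genes had a larger one.

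The promoters of Cd5l and Vsig4 are shown because these are the markers with the widest range, highest in miR-143DOX mouse 1 and lowest in miR-143DOX mouse 2. Sequences are from RefSeq (GRCm38.p6), 250 bases before to 50 bases after the start of the gene, 5' to 3' on the strand of the gene. The Cd5l promoter is at chr3:87357631-87357930 (plus strand) and the Vsig4 promoter at chrX:96293389-96293688 (minus strand). Capitals mark 2 motifs on either strand. One is GAGGAA, a core of sites for PU.1, the factor needed for macrophage development, and the other is TGCTGA, part of the site of MAF factors, which are active in resident macrophages.
Cd5l: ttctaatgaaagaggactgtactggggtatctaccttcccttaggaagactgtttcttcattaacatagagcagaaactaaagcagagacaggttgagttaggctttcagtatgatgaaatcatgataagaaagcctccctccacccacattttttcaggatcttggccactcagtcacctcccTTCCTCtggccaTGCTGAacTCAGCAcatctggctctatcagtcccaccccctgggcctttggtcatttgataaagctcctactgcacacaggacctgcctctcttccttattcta
Vsig4: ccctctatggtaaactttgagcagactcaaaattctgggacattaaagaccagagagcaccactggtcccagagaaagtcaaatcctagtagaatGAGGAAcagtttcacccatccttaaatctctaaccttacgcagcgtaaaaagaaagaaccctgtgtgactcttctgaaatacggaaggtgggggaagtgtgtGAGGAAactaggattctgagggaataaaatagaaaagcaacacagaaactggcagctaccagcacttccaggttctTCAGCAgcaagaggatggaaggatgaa
Cd5l held 1 match to the PU.1 core and 2 to the MAF motif, and Vsig4 held 2 and 1. A promoter was matched for 8 of the 10 markers, all but C1qa and Csf1r. Of these, 6 held the PU.1 core, which 28.3% of all 32851 promoters of that length hold, and 4 held the MAF motif, against 19.5% of all promoters. A match describes letters in the window, and binding was not measured.

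Other genes of Kupffer cells and macrophages were looked up as a list of 44, of which 43 were in the table and 39 were tested. Of these, 19 lay above 0 and 20 below 0, with a median difference of -0.0022. At an unadjusted p under 0.05, 1 of the 39 lay higher and 0 lower, beside 1.38% and 1.68% of all genes, a count near that background. The gene was Id3, a helix-loop-helix inhibitor that Kupffer cells need and that other liver cells also express. It measured 7.44, 8.996 and 8.44 in miR-143DOX mice, against 7.42, 7.73 and 7.62 in control mice, a difference of 0.70 (standard error 0.30, limma adjusted p = 0.9997). The value of miR-143DOX mouse 1 lay inside the control range. Groups did not overlap for 1 genes higher and 2 lower in miR-143DOX, of 39, beside 3.4% and 3.73% of all genes. The sialic acid receptor Siglec1 and the lipopolysaccharide co-receptor Cd14 were among them. Siglec1 differed by -0.21 (standard error 0.13) and Cd14 by 0.21 (0.13). The iron exporter Slc40a1, which hepatocytes also express, differed by 0.23 (0.14). On the list, miR-143DOX mouse 1 was above miR-143DOX mouse 2 for 32 of 39 genes.

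Genes of neighbouring roles did not pass 5% FDR either. For haemoglobin and iron handling, which includes Cd163, 0 of 9 genes lay at an unadjusted p under 0.05, with a median of 0.04. Ferritin heavy chain, Fth1, measured 12.50, 12.39 and 12.21 in miR-143DOX mice and 12.19, 12.18 and 11.93 in control mice. Its groups did not overlap, at a difference of 0.27 (standard error 0.14, limma unadjusted p = 0.0846). Of the 9 genes, 1 lay higher without overlap and 0 lower, beside 3.4% and 3.73% of all genes. Among 12 tested macrophage cytokine and chemokine genes 0 lay at an unadjusted p under 0.05, with a median of -0.07. Il1a, the gene of interleukin 1 alpha, differed by -0.32 (standard error 0.26), with 5.78, 5.09 and 5.49 in miR-143DOX mice against 5.56, 5.34 and 6.43 in control mice. Among 6 tested genes of monocytes and recruited macrophages, with a median of 0.01, 1 lay lower and 0 higher at an unadjusted p under 0.05, beside 1.68% and 1.38% of all genes. It was Spp1 (osteopontin). It measured 6.22, 5.99 and 6.14 in miR-143DOX mice, against 6.33, 6.40 and 6.59 in control mice, a difference of -0.32 (0.14, limma unadjusted p = 0.0379, adjusted p = 0.9997). Bile duct cells also express Spp1, and it is on that list too. The monocyte antigen gene Ly6c2, which is nearly identical to Ly6c1 and may share its signal, had the largest difference of the list, 0.54 (standard error 0.28, limma unadjusted p = 0.0785), with groups that overlapped.

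Most markers of other sinusoidal cells were also higher in miR-143DOX mouse 1 than in miR-143DOX mouse 2. For sinusoidal endothelium, miR-143DOX mouse 1 was above miR-143DOX mouse 2 for 20 of 20 markers, and the mean deviations were 0.17, -0.30 and -0.03 in miR-143DOX mice, against 0.04, -0.0018 and 0.12 in control mice. Their summed log2 level ran from 141.2 to 150.6 in miR-143DOX and from 147.2 to 149.7 in control. Between the groups, 16 of 20 endothelial markers lay below 0, with a median of -0.11, where the Kupffer cell markers had 0.06. Of the 20, 1 lay lower and 0 higher at an unadjusted p under 0.05, beside 1.68% and 1.38% of all genes. It was the lectin gene Clec4g, at -0.37 (standard error 0.14, limma unadjusted p = 0.0245), whose groups did not overlap. Of the 20, 2 lay lower without overlap and 0 higher, beside 3.73% and 3.4% of all genes. For hepatic stellate cells, miR-143DOX mouse 1 was above mouse 2 for 13 of 15 tested markers, with mean deviations of 0.18, -0.14 and -0.02 in miR-143DOX mice, against -0.0016, 0.03 and -0.04 in control mice. Their 16 markers summed to 106.8 to 111.7 in miR-143DOX and 108.3 to 109.1 in control, and 0 of the 15 lay at an unadjusted p under 0.05 (median 0.02). For hepatocytes it was above for 4 of 16 markers, with mean deviations of -0.10, -0.03 and 0.06 in miR-143DOX mice, against -0.11, 0.02 and 0.16 in control mice. The sum of the hepatocyte markers ran from 197.7 to 200.2 in miR-143DOX and from 197.5 to 201.7 in control. Of these 16, 1 lay lower and 0 higher at an unadjusted p under 0.05, beside 1.68% and 1.38% of all genes. That gene was Serpina1a, read by 1 probe set, at -0.98 (standard error 0.37, limma unadjusted p = 0.0218), with groups that overlapped. How far the mean deviations of the hepatocyte list rest on Serpina1a was not tested. No marker list is at 0 on these arrays, since intensities have no true zero. The part of the make-up of the cell preparations in the values of the Kupffer cell markers was not tested.

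**Figure D3:**
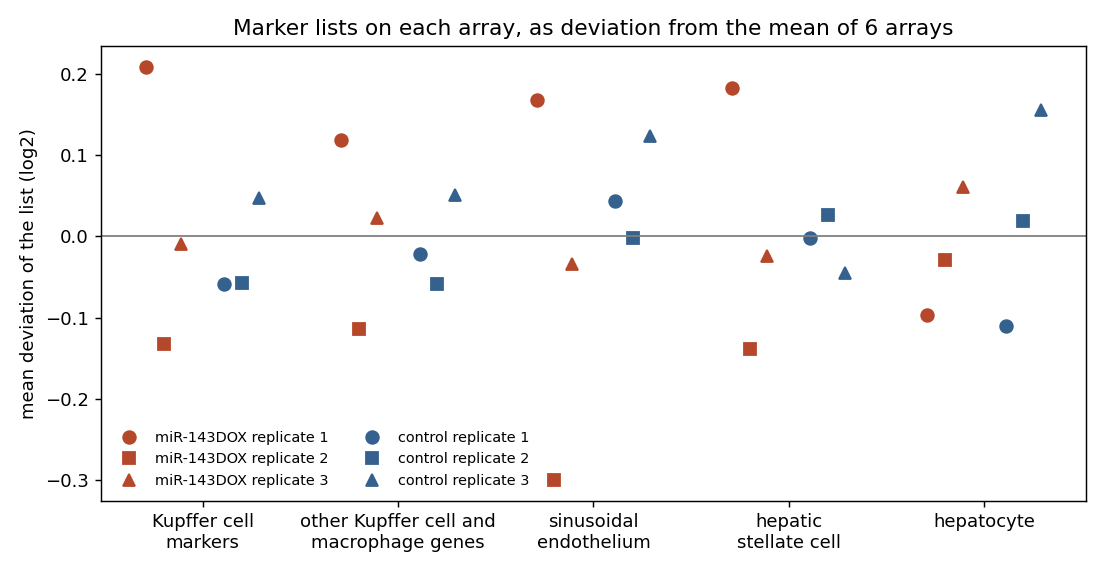
Mean deviation (log2) of the tested genes of 5 lists on each array, as the distance of each gene from its own mean over the 6 arrays. miR-143DOX mice are red and on the left of each list, control mice blue and on the right, and the shape gives the replicate number. In the Kupffer cell, macrophage, endothelial and stellate lists miR-143DOX mouse 1 is highest and mouse 2 lowest, which is not so in the hepatocyte list.

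The array reads most genes by several probe sets along the transcript, and the 10 markers had 101, from 3 for C1qa and C1qc to 23 for Csf1r. None of them was annotated to a second gene. In the limma fit over all 212097 single-gene probe sets, 0 of the 101 passed 5% FDR, as did 0% of all, and 4 lay at an unadjusted p under 0.05, 1 higher and 3 lower. That is beside 4.46% of all probe sets, 2.21% higher and 2.25% lower. Groups did not overlap for 8 of the 101, 4 higher and 4 lower, beside 9.09% of all, 4.52% higher and 4.57% lower. Above 0 lay 55 of the 101 and 50.7% of all probe sets. The 4 probe sets belonged to Marco (1 higher), Csf1r (1 lower) and Cd163 (2 lower).

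Probe sets of the same gene often lay on both sides of 0. Cd5l was the exception, with 6 of 6 above 0, between 0.02 and 0.30, and miR-143DOX mouse 1 was highest on each of its 6 probe sets. Csf1r had 12 above and 11 below, Cd163 9 above and 11 below, and Vsig4 3 and 3. The probe set of Marco at an unadjusted p under 0.05 was a dim one. It read 5.60, 4.97 and 4.44 in miR-143DOX mice, against 3.16, 3.83 and 2.62 in control mice, while the 18 probe sets of the gene ran from -1.23 to 1.80. A probe set of Csf1r read 5.97 in control mouse 2, against 8.65 to 9.02 on the other 5 arrays, and gave the highest difference of that gene, 0.94. The brightest probe set of Csf1r read 11.54, 11.88 and 10.09 in miR-143DOX mice and 10.89, 10.59 and 10.42 in control mice. It gave 0.54 where the mean over all 23 probe sets gave 0.06.

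**Figure D4:**
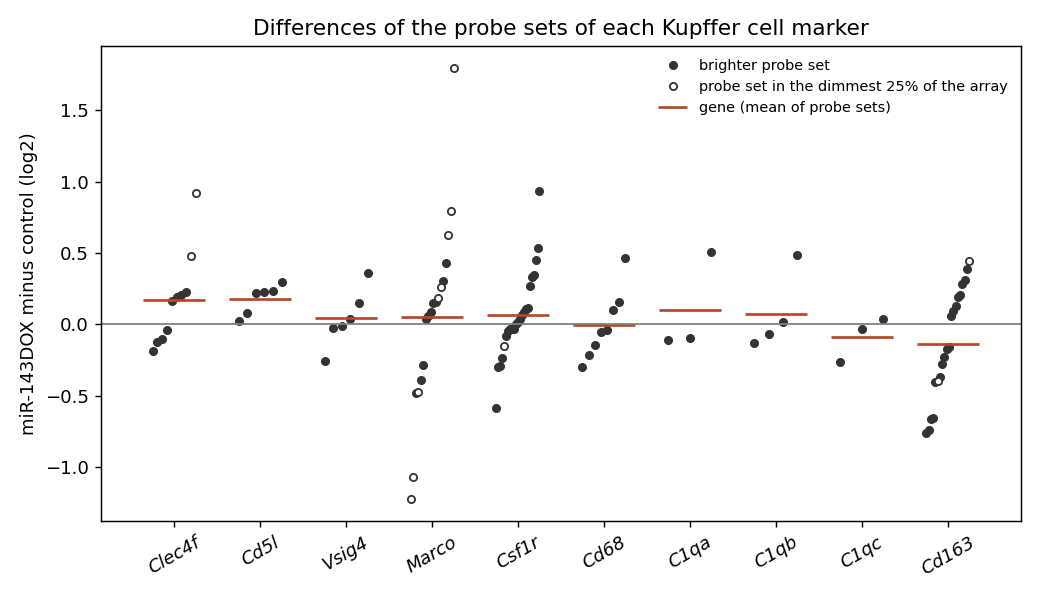
Differences (miR-143DOX minus control, log2) of the 101 probe sets of the Kupffer cell markers, ordered within each gene. Open points are probe sets in the dimmest 25% of single-gene probe sets, and red lines are the genes. Marco and Csf1r spread on both sides of 0, and the 6 probe sets of Cd5l lie above 0.

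The genes whose deviations over the 6 arrays lay nearest to the mean of the 10 markers, by the root mean square difference among 15302 other genes, were Casp2 (0.02), Zmynd11 (0.03), Brf2 (0.03), Chrna1 (0.04) and Olfr958 (0.04). The median over the other genes was 0.19. The likeness rests on 6 arrays and describes these arrays alone.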

How the data were processed

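The authors deposited 1 table of processed values for 6 arrays, taken as log2 because they ran from 1.60 to 15.2, with 234873 probe sets. Partek is named per the submitters' processing notes, and its version, background correction and normalization are not given in the sources used here. Platform annotation (symbols of its own date) gave 1 gene for 212097 probe sets, several for 4475 and none for 18301, and the first kind was used. The 95th percentiles of the arrays differed by up to 0.135, so the deposited log2 values were quantile normalized here, and a gene was the mean of its probe sets. The fits used R 4.3.3 and limma 3.58.1 (lmFit and eBayes with group as the term, two-sided p). Benjamini-Hochberg adjustment ran over 15312 genes and, separately, all 212097 single-gene probe sets. Fits were tested on simulated data with planted changes larger than any marker difference. That test does not bear on differences as small as those. Precision is limited by the number of arrays.

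The 10 markers and 15 other lists were chosen with earlier results of these data known. The lists overlap: Csf1r is also in the CSF1 receptor axis and Cd163 in haemoglobin and iron handling. The list of other macrophage genes shares Fcgr2b with sinusoidal endothelium and Spi1 with the CSF1 receptor axis. It shares Hmox1, Slc40a1 and Slc11a1 with haemoglobin and iron handling. Spp1 is on the monocyte and bile duct lists. Of 213 written genes of those lists 201 were found, 6 of them under another symbol. Named were the 10 markers, up to 4 genes per list with the smallest p, and the 5 nearest profiles. An exact permutation test of 3 against 3 cannot go below p = 0.1, so none is given. Alternatives covered scaling, the filter, the gene value, the prior, array weights, the replicate block and each array left out. Leaving out dim probe sets was chosen after seeing the data.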

Additional observations from a re-analysis of the deposited data

How the results depend on the processing

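Over 16 other settings, 0 genes passed 5% FDR in limma in each, beside 469 at an unadjusted p under 0.05 in the setting reported. That count moved by over 1.5 times to 1127 without miR-143DOX replicate 3, 299 without replicate 2, 1021 with array weights and 734 with the replicate block, and to 299 of 10208 genes with the lowest 50% left out. The median difference of the 10 markers ran from -0.03 to 0.12 with each array left out, lowest without miR-143DOX replicate 1 and highest without replicate 2, and was 0.04 and 0.10 without control replicates 1 and 3. It was -0.03 with the median over probe sets and 0.08 with the brightest one. For the other macrophage genes the median ran from -0.08 to 0.08 with each array left out. Markers at an unadjusted p under 0.05 numbered 0 to 1 with each array left out and 0 otherwise. Their probe sets at that limit, 4 as reported, numbered 1 to 8 with each array left out: 7 and 1 without miR-143DOX replicates 1 and 2, and 8, 1 and 2 without control replicates 1, 2 and 3. With the replicate block they numbered 2. The share of all probe sets at that limit was not counted in these settings, so the counts have no background beside them. Deviations of same-numbered mice correlated at 0.11, 0.05 and 0.30, and those of differently numbered mice at -0.26 to 0.15. The labels do not say whether same-numbered mice are pairs, and the setting reported did not take them as such. Pairing was not settled here, and 0 genes passed 5% FDR with the block or without it.

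Signs of single markers turned in some settings, with no call in any, and the cause was not tested. With the median over probe sets they were -0.11 for C1qa, -0.059 for C1qb and -0.20 for Marco. With the brightest probe set they were -0.10 for C1qa, -0.070 for C1qb, 0.036 for C1qc, 0.13 for Cd163 and 0.16 for Cd68. With array weights Cd68 was 0.038. With each array left out, C1qb ran from -0.041 to 0.15, Cd5l from -0.023 to 0.40, Csf1r from -0.0031 to 0.13, Vsig4 from -0.13 to 0.22, C1qc from -0.16 to 0.030, Cd68 from -0.12 to 0.16 and Marco from -0.011 to 0.10. Cd163 ran from -0.32 to -0.03, C1qa from 0.02 to 0.23 and Clec4f from 0.07 to 0.27. Cd5l, Csf1r and C1qb turned without miR-143DOX replicate 1, Vsig4 without it or control replicate 1, C1qc without control replicate 1 and Marco without miR-143DOX replicate 3. Cd68 turned without miR-143DOX replicate 2 or 3 or control replicate 3. Marco was not tested with the lowest 50% of genes left out.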

Other observations

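Lists of other blood cells differed in the order of miR-143DOX mice 1 and 2. Mouse 1 was above mouse 2 for 1 of 6 tested T and natural killer cell genes and 1 of 9 dendritic cell genes. It was above for 3 of 5 B cell, 2 of 4 neutrophil and 2 of 2 erythroid genes. The Kupffer cell markers had 10 of 10, and all genes 51.0%. Not all macrophage lists had that order. It held for 5 of 12 cytokine and chemokine genes and 3 of 6 genes of monocytes and recruited macrophages. For the CSF1 receptor axis it held for 5 of 7, and for haemoglobin and iron handling for 5 of 9. The mean deviations of the dendritic list were -0.12, 0.15 and -0.02 in miR-143DOX mice, against 0.08, 0.02 and -0.11 in control mice. Of the genes tested, 5 of 5 B cell, 4 of 4 neutrophil, 3 of 5 bile duct and 1 of 2 erythroid genes lay above 0 in miR-143DOX minus control, with medians of 0.13, 0.04, 0.01 and 0.01, beside 52.4% of all genes above 0. At an unadjusted p under 0.05 in limma, 1 B cell gene lay higher (Faim3, at 0.34) and 1 bile duct gene lower (Spp1), beside 1.38% and 1.68% of all genes, and none passed 5% FDR. Many genes of these lists were dim: 6 of 15 T and natural killer cell genes and 4 of 11 neutrophil genes in the table passed the filter.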
